A study of Mus musculus with 8 samples.

Results

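Imprinted genes are expressed mainly or only from the copy inherited from 1 parent. Of 42 listed mouse imprinted genes, 41 reached 10 normalised fragments in 2 or more of 8 RNA-seq libraries and were followed here, out of 16623 loci that met the same rule and 52281 named loci in the table. Ascl2, a trophoblast transcription factor, was the gene left out, at 0 to 12.7 normalised fragments per library. The members just inside the rule were Tfpi2, at 0 to 16.1, and Calcr, at 4.96 to 23.5. The gene Grb10 is also imprinted and was not in the list.

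The libraries came from embryoid bodies, aggregates of embryonic stem cells that differentiate into mixed tissues, on a C57BL/6 background and collected at day 9. In all, 4 groups of 2 libraries were compared. The first was a knockout of Prdm16, a zinc finger protein with a PR domain of the histone methyltransferase type, and the second its wild-type control. The third was a knockout labelled PR domain, whose sample titles name exon 4, and the fourth a separate set of wild-type controls. All groups share the strain label, and no treatment is given. The labels do not say whether replicates were separate cultures, whether a line was 1 clone, or whether a knockout and its control came from 1 parent line, so p-values measure the spread between these libraries only.

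In mammals, most imprinted genes lie in clusters around a stretch of DNA whose methylation was set in the egg or the sperm. The methylated and unmethylated copies then direct a long non-coding RNA, an insulator or a promoter to silence 1 parental copy. Many of the protein products act on growth: paternally expressed genes such as Igf2 tend to promote it and maternally expressed genes such as Cdkn1c to restrain it. The deposited tables do not separate the parental copies, so a level here is the sum of both, and the parental origin given with a gene is background. In bulk samples, fewer cells of a type and less RNA per cell cannot be told apart.

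The promoter windows of 3 members are shown because Dlk1 and Plagl1 had the largest called rises and Meg3, the neighbour of Dlk1, moved the other way in the Prdm16 knockout. Each holds the 250 bases before a transcript start in RefSeq (GRCm38.p6), written 5′ to 3′ in the sense direction. Capitals mark the hexamer TGCCGC on either strand, the core of the site bound by the imprint-protecting factor ZFP57 when it is methylated.
Dlk1, chr12:109452573-109452822, plus strand: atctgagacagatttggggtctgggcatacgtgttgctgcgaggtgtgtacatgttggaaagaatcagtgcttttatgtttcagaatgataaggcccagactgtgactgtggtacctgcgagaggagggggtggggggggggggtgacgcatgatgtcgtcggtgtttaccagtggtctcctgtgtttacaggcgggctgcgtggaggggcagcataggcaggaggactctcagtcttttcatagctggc
Meg3, chr12:109540746-109540995, plus strand: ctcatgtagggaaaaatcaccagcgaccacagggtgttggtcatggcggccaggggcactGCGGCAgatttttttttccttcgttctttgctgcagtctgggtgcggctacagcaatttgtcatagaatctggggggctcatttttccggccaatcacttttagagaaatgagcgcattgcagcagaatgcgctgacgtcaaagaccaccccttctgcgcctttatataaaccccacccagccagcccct
Plagl1, chr10:13090582-13090831, plus strand: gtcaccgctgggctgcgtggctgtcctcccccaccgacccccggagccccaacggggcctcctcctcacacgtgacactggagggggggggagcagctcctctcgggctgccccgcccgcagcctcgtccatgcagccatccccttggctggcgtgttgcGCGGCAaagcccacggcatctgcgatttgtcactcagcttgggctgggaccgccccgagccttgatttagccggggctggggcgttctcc
The hexamer stood once in the Meg3 window, once in the Plagl1 window and 0 times in the Dlk1 window. It was found in 8.68% of 32851 RefSeq promoter windows of this length. Of the 42 listed genes, 34 symbols had 55 windows searched, and 7 of these symbols had at least 1 window with the hexamer. Impact was not among the symbols searched, so these need not be counts of every RefSeq window of the listed genes. A match to these letters is a description of the sequence and not a measured site.

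Several members carry microRNAs inside their transcribed rows, and the mature forms named below are shown with the seed, bases 2 to 8, in capitals. They come from the rows of H19 (miR-675), Meg3 (miR-770) and Mirg (miR-134 and miR-410), and from the strand opposite Rtl1 (miR-127, miR-433 and miR-136).
mmu-miR-675-5p: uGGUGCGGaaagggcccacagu
mmu-miR-675-3p: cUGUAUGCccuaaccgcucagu
mmu-miR-770-5p: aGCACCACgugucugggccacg
mmu-miR-134-5p: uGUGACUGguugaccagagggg
mmu-miR-410-3p: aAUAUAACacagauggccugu
mmu-miR-127-3p: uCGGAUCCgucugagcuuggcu
mmu-miR-433-3p: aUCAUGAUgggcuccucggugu
mmu-miR-136-5p: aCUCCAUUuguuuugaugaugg
The table of RefSeq gave 33 mature microRNAs for these rows and the Mest region, and they held 33 distinct seeds, so none shared a seed with another. Mature microRNAs were not analysed here, and the values below are fragments of the host row.

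Libraries held 6273789 to 9086885 fragments on named loci, of which 2.89 to 3.61% fell on the members. Prdm16 itself was low, at 11.2 and 1.10 normalised fragments in the Prdm16 knockout and 24.4 and 26.3 in its control, and at 23.3 and 15.7 in the PR domain knockout and 44.6 and 22.7 in its control. These are counts over the whole gene and do not test the loss of 1 exon. The Y-linked genes Ddx3y, Uty and Kdm5d were at 0 in both Prdm16 knockout libraries and Eif2s3y at 0 and 1 fragment. Each had 64.7 or more normalised fragments in every other library. All were lower in the Prdm16 control than in both PR domain groups. Ddx3y had 492 and 513 in the Prdm16 control against 989 to 1148 in the PR domain groups, and Kdm5d 64.7 and 83.7 against 471 to 538. Grb10 stood at 44.7 and 28.6 in the Prdm16 knockout and 3869 and 4129.8 in its control. A difference of cell line and the knockout cannot be told apart here. Endoderm markers (8 of 8 genes tested, none at 0 in every library) summed to 66831 and 67570 normalised fragments in the Prdm16 knockout and 31816 and 33527 in its control, and to 7756 and 7628 in the PR domain knockout and 4253 and 4441 in its control. Of these 8, 6 rose and 0 fell in the Prdm16 knockout, while 7 rose and 1, Sox17 (-0.99), fell in the PR domain knockout. Mesenchyme markers (8 of 8 tested) summed to 108775 and 106336 in the Prdm16 knockout and 77192 and 77029.8 in its control, and to 139730.3 and 140623 in the PR domain knockout and 106539.5 and 105287 in its control. Of these, 5 and 6 rose, and the same 2, Twist1 (-1.18 and -0.78) and Prrx1 (-2.19 and -0.996), fell. Of 5 cardiomyocyte markers, 4 fell in the Prdm16 knockout, with 5 in the PR domain knockout, and of 4 endothelial markers 3 and 4 fell. Of 5 neural markers tested, 5 and 3 fell, and 6 of 6 blood markers rose in both knockouts. The part of these cell types in the values of the members was not tested. Trophoblast markers (1 of 6 tested, Prl2c2 at 0 throughout) summed to 1.24 and 6.60 in the Prdm16 knockout and 26.5 and 23.5 in its control, and to 18.8 and 13.2 in the PR domain knockout and 11.2 and 7.22 in its control. The 1 tested, Tfap2c, fell in the Prdm16 knockout (-2.82, adjusted p = 4.4e-05) and did not pass in the PR domain knockout (adjusted p = 0.738).

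Values are fragments per locus that the authors had scaled between libraries, called normalised fragments below. The fold changes were taken with limma from log2(value + 1), fitted to all 8 libraries. A change is called at a Benjamini-Hochberg adjusted p below 0.05 over 16623 loci. The SE and p-values use a spread per locus that limma draws towards the trend over all loci. The 4 residual degrees of freedom of a locus stood beside 25.4 prior ones, so both rest mostly on that trend. In the Prdm16 knockout, 17 of the 41 members rose, 16 fell and 8 did not pass the test, and the median log2 fold change was 0.04. Over all loci tested, 39.1% were called, 18.0% higher and 21.1% lower, with a median of -0.03. In the PR domain knockout, 14 members rose, 5 fell and 22 did not pass, with a median of 0.04. Over all loci in that comparison 19.2% were called, 8.48% higher and 10.7% lower, with a median of -0.03. The SE was 0.023 for H19, a high row, and 0.62 for Tfpi2, a low one, so smaller changes are called in high rows. Shares over all loci, here and below, were not matched to the members for level. Rises made up 51.5% of the members called in the Prdm16 knockout, against 64.0% under DESeq2 and 64.3% on log2(FPKM + 1), and 73.7% of those called in the PR domain knockout, against 60.0% on log2(FPKM + 1). A called change of at least 1 in size on the log2 scale was found for 3 members in the Prdm16 knockout (Dlk1, Plagl1 and Calcr) and 0 in the PR domain knockout, where 7.21% and 3.2% of all loci were called at that size. Under a test against a minimum change of 1.5-fold, added after the data were seen, Dlk1 and Plagl1 passed in the Prdm16 knockout, as did Asb4 in the PR domain knockout, against 4.11% and 1.33% of all loci.

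**Figure D1:**
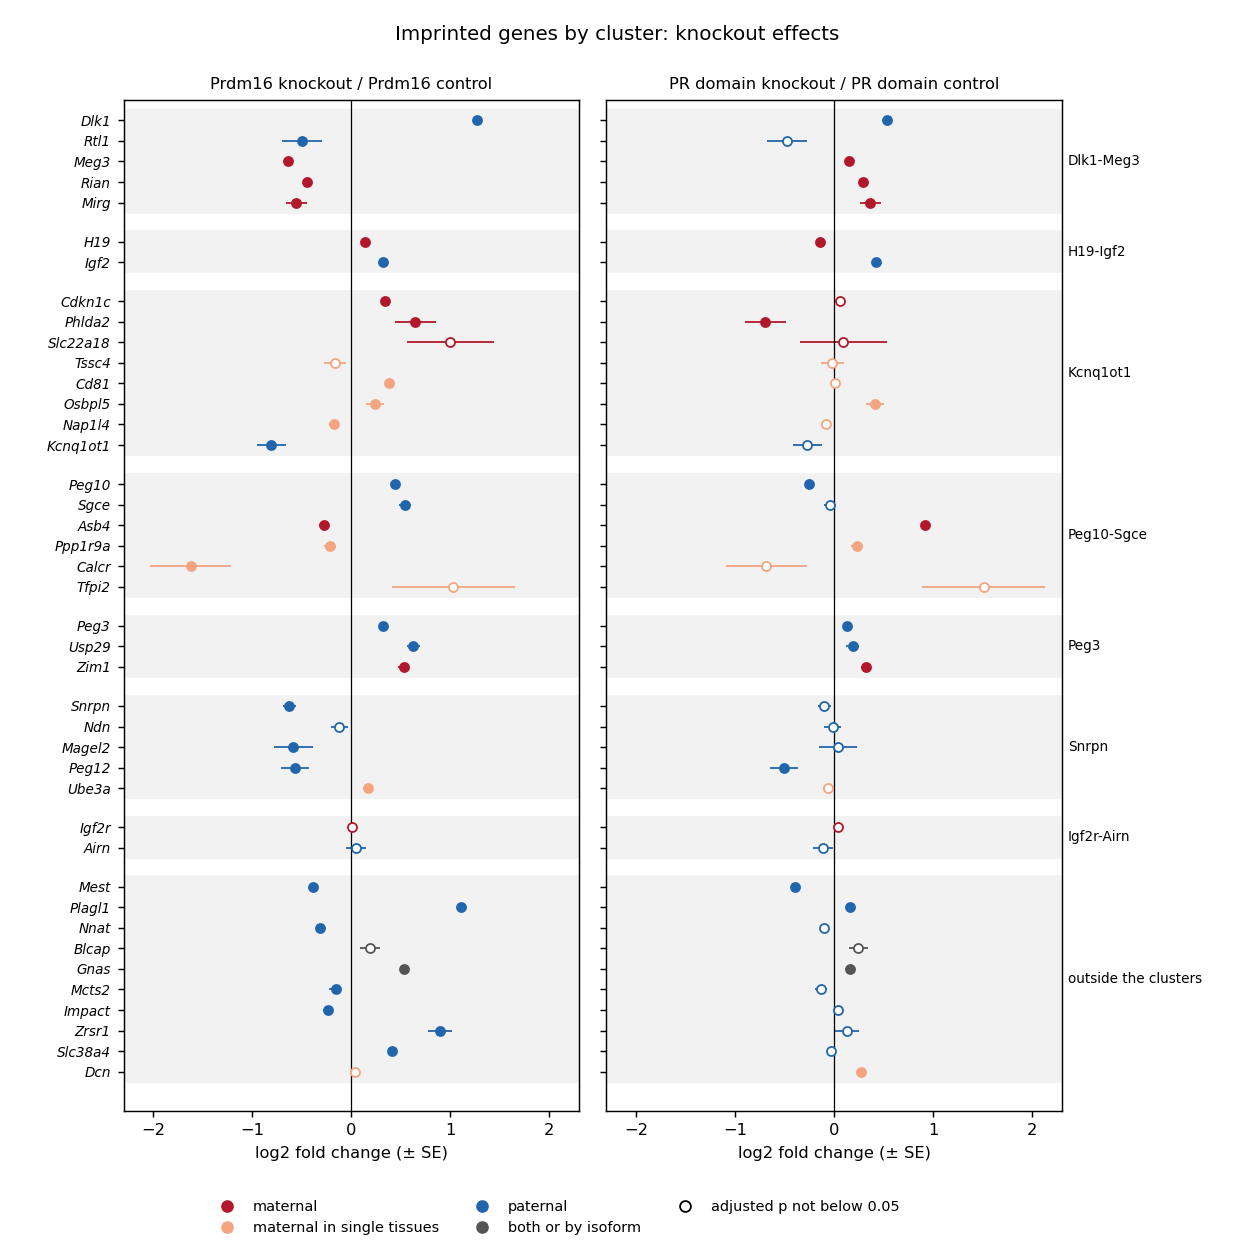
Log2 fold change ± SE (x axis) of the 41 imprinted genes (rows, grouped by cluster) in the Prdm16 knockout (left) and the PR domain knockout (right), each against its own control, with 2 libraries a group. Filled points passed the test; within the Dlk1-Meg3 cluster Dlk1 lies right of 0 in both panels, while Meg3, Rian and Mirg lie left of 0 in the Prdm16 knockout and right of 0 in the PR domain knockout.

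The Dlk1-Meg3 cluster on chromosome 12 held the largest rise. Dlk1 (paternal; chromosome 12, 109452823 to 109463336, GENCODE M21 on GRCm38) encodes a membrane protein related to Notch ligands that restrains differentiation of adipocytes and other precursors. Dlk1 stood at 27037 and 24918 normalised fragments in the Prdm16 knockout libraries, against 10819.6 and 10727 in their controls. It stood at 11213 and 12349 in the PR domain knockout, against 8152 and 8093 in its controls. Neither pair of groups overlapped, and Dlk1 rose in both (Prdm16 knockout: log2 fold change 1.27 ± 0.037 (SE), adjusted p = 6.4e-22; PR domain knockout: log2 fold change 0.53 ± 0.037 (SE), adjusted p = 2.76e-12). The rise was smaller in the PR domain knockout (difference of the log2 fold changes -0.73, adjusted p = 7.94e-12).

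The maternally expressed non-coding RNAs of the cluster moved opposite to Dlk1 in the Prdm16 knockout and rose with it in the PR domain knockout. Meg3 (chromosome 12, 109541001 to 109571726), the long RNA whose expression accompanies silencing of Dlk1 on the maternal copy, had 4253 and 4362 normalised fragments in the Prdm16 knockout and 6895 and 6567 in its control. It had 11751 and 11391 in the PR domain knockout and 10488 and 10459 in its control. Meg3 fell in the Prdm16 knockout (log2 fold change -0.64 ± 0.034 (SE), adjusted p = 1.57e-15) and rose slightly in the PR domain knockout (log2 fold change 0.14 ± 0.034 (SE), adjusted p = 0.00225), with no overlap of groups in either. Rian, the host of many small nucleolar RNAs, had 2721 and 2902 in the Prdm16 knockout against 3841 and 3845 in its control, and 7509 and 6968 in the PR domain knockout against 5885 and 5969 in its control (log2 fold changes -0.45 and 0.29). Mirg, the host of the miR-134 and miR-410 group, had 140.2 and 178 in the Prdm16 knockout against 227 and 239 in its control, and 401 and 389 in the PR domain knockout against 322 and 291 in its control. Its log2 fold changes were -0.56 (adjusted p = 9.87e-05) and 0.36 (adjusted p = 0.0134). The 3 RNAs are read from the same strand, and within each knockout they moved in the same direction. The differences between the knockouts were 0.79 for Meg3, 0.74 for Rian and 0.92 for Mirg on the log2 scale (adjusted p = 1.48e-13, 3.51e-11 and 4.68e-05).

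Rtl1, a paternally expressed gene derived from a retrotransposon, was low, with group means of 52.1 to 76.2. It fell in the Prdm16 knockout (log2 fold change -0.50 ± 0.20 (SE), adjusted p = 0.0481), and its log2 fold change of -0.48 in the PR domain knockout did not pass (adjusted p = 0.099). Its exons overlap microRNA precursors on the other strand, and the strand setting of the counting is not given. Exons of Meg3 overlap those of Gm26906 on the other strand by 1228 bases, so the same limit holds for the Meg3 row. The Rtl1 call was lost without Prdm16 knockout replicate 1 or either control library (adjusted p 0.103 to 0.302) and under edgeR and DESeq2, and the Mirg call of the PR domain knockout without either knockout library or control replicate 2 (adjusted p 0.0617 to 0.166). On log2(FPKM + 1) the calls of Rtl1, Rian and Mirg in the Prdm16 knockout and of Meg3, Rian and Mirg in the PR domain knockout were lost. There Rian took a log2 fold change of -0.06 in the PR domain knockout. The FPKM of Rian was 1304 and 615 in the PR domain knockout and 1363 and 641 in its control, so its replicates lay further apart in FPKM than in fragments.

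Within a library, Meg3 gave 15.7 and 17.5 fragments per 100 Dlk1 fragments in the Prdm16 knockout and 63.7 and 61.2 in its control. In the PR domain knockout it gave 105 and 92.2, and in its control 129 and 129. The ratio is not corrected for length, so it can be compared between libraries but not read as a ratio of molecules. It was lower in each knockout than in its control, with no overlap. The 2 wild-type sets differed from each other as well.

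**Figure D2:**
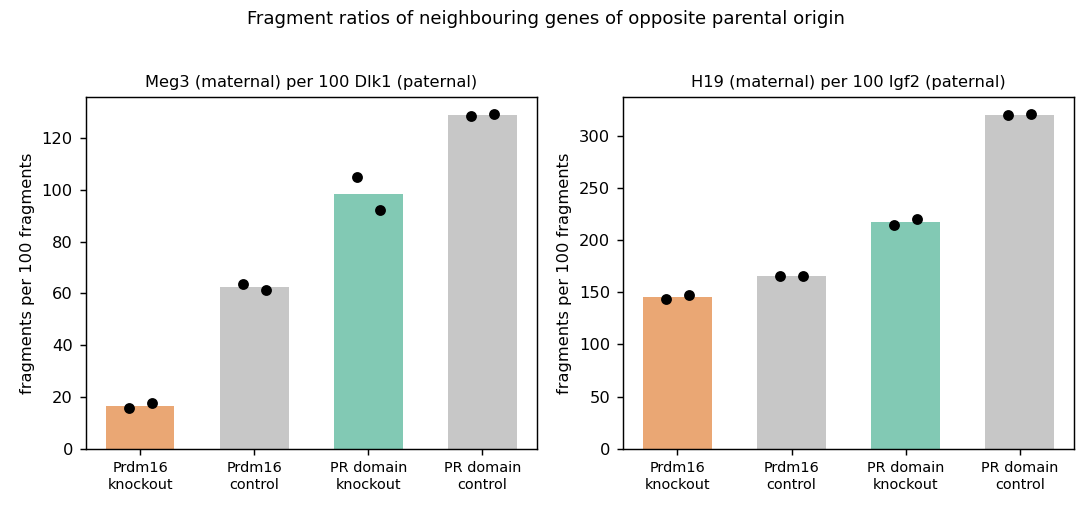
Fragments of Meg3 per 100 fragments of Dlk1 (left) and of H19 per 100 of Igf2 (right) in each group; bars are means of 2 libraries and points the libraries. Both ratios are lower in each knockout than in its own control, and the controls differ, with Meg3 at 129 in the PR domain control and 61.2 to 63.7 in the Prdm16 control, and H19 at 320.0 to 321 in the PR domain control and 166 in the Prdm16 control.

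H19 and Igf2 share an insulator and enhancers on chromosome 7. H19 (maternal; chromosome 7, 142575529 to 142578143) is a long non-coding RNA and host of miR-675, and Igf2 (paternal; chromosome 7, 142650766 to 142666816) a fetal growth factor. H19 had 54267 and 54597 normalised fragments in the Prdm16 knockout and 49039 and 49935 in its control, and 70679 and 72573 in the PR domain knockout and 79138 and 78754 in its control. It rose a little in the Prdm16 knockout (log2 fold change 0.14 ± 0.023 (SE), adjusted p = 1.58e-05) and fell a little in the PR domain knockout (log2 fold change -0.14 ± 0.023 (SE), adjusted p = 2.55e-05). Igf2 had 37777 and 36997 in the Prdm16 knockout and 29621 and 30159.8 in its control, with 32961 and 32893 in the PR domain knockout and 24729.6 and 24542 in its control. It rose in both (log2 fold change 0.32 ± 0.025 (SE), adjusted p = 1.37e-11 in the Prdm16 knockout; log2 fold change 0.42 ± 0.025 (SE), adjusted p = 9.1e-14 in the PR domain knockout), and the 2 rises could not be told apart by the test of their difference (0.10 ± 0.036 SE, adjusted p = 0.0661). Per 100 Igf2 fragments, H19 gave 144 and 148 in the Prdm16 knockout against 166 and 166 in its control, and 214 and 221 in the PR domain knockout against 320.0 and 321 in its control. Neither H19 call passed on log2(FPKM + 1). The Igf2 row includes Gm49394, whose exons lie on the same strand.

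**Figure D3:**
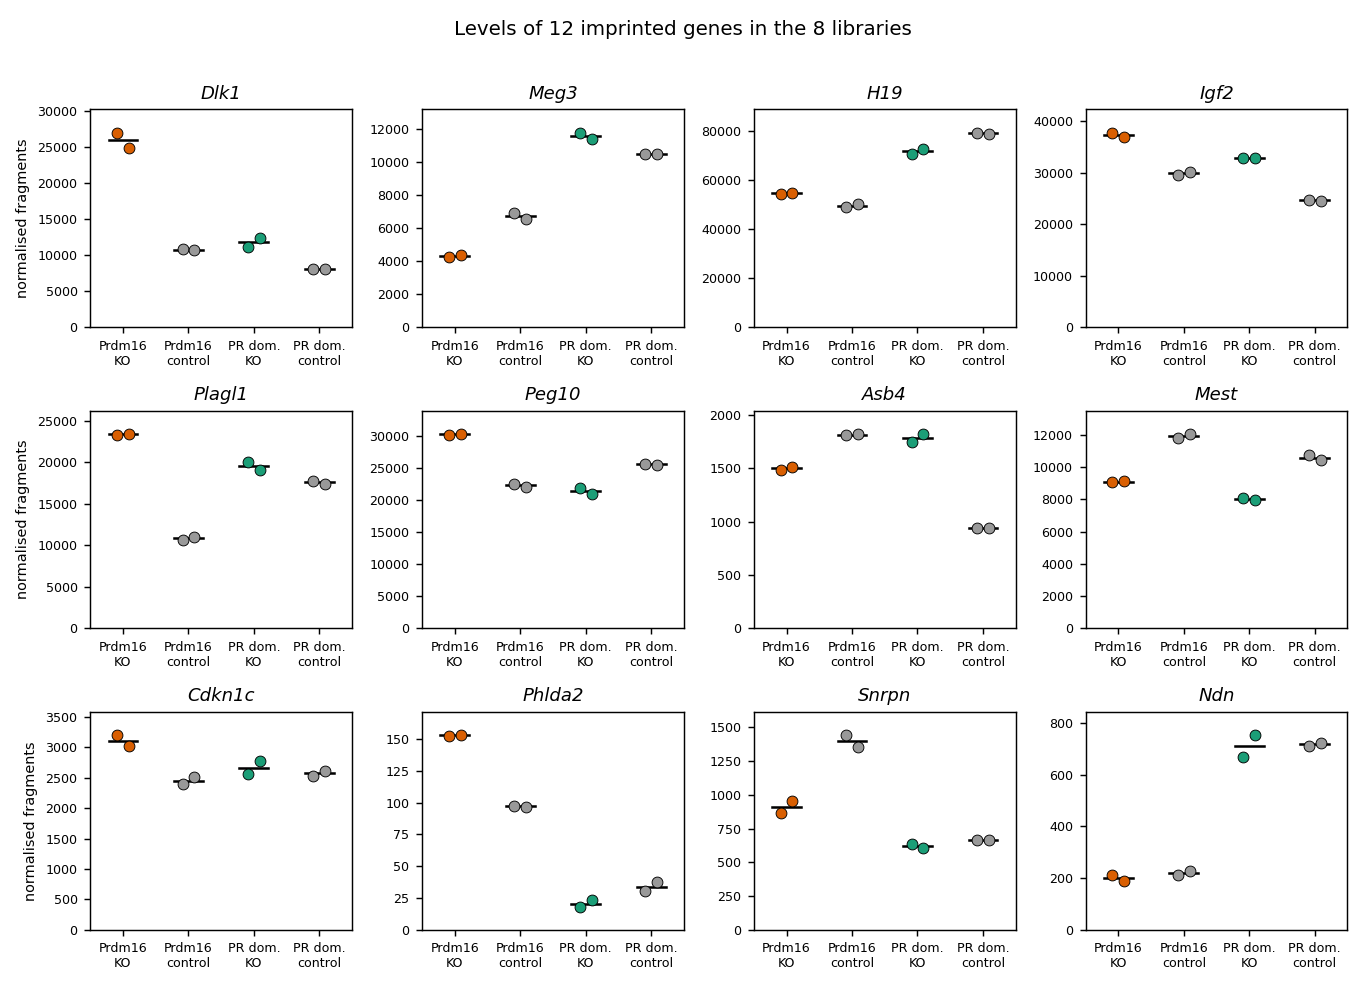
Normalised fragments (y axis, from 0) of 12 imprinted genes in each of 8 libraries; points are libraries and lines the mean of the 2 in a group. Dlk1 and Plagl1 stand highest in the Prdm16 knockout, Asb4 is lowest in the PR domain control, and Ndn lies at 189 to 228 in both Prdm16 groups and at 670.1 to 753 in both PR domain groups.

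The Kcnq1ot1 cluster lies further along chromosome 7. Kcnq1ot1, the paternally expressed RNA that silences its neighbours on the paternal copy, had 89.3 and 82.5 normalised fragments in the Prdm16 knockout and 136 and 168 in its control, and fell (log2 fold change -0.81 ± 0.15 (SE), adjusted p = 5.46e-05). The PR domain knockout had 184 and 132 and its control 179.5 and 198 (adjusted p = 0.224), with overlapping groups. Cdkn1c (maternal), a cyclin-dependent kinase inhibitor, had 3201 and 3023 in the Prdm16 knockout against 2392 and 2516 in its control, and 2563 and 2775 in the PR domain knockout against 2527 and 2615 in its control. It rose in the Prdm16 knockout (log2 fold change 0.34 ± 0.046 (SE), adjusted p = 5.06e-07) and not past the test in the PR domain knockout (adjusted p = 0.491). Phlda2 (maternal), a regulator of placental growth, had 153 and 153 in the Prdm16 knockout and 97.5 and 96.9 in its control. It had 17.9 and 23.2 in the PR domain knockout and 30.4 and 37.2 in its control. Phlda2 rose in the Prdm16 knockout (0.65 on the log2 scale, adjusted p = 0.0125) and fell in the PR domain knockout (-0.69, adjusted p = 0.0148), and the difference passed (-1.34 ± 0.29 SE, adjusted p = 0.00137). Cd81, a tetraspanin, had 3280.4 and 3260.0 in the Prdm16 knockout against 2534 and 2475 in its control and rose (0.38, adjusted p = 1.18e-08). The PR domain knockout had 2694 and 2847 against 2797 and 2728 in its control (adjusted p = 0.967).

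Among the other members of that cluster, Osbpl5, an oxysterol-binding protein relative, rose in both knockouts (log2 fold changes 0.24 and 0.41, adjusted p = 0.037 and 0.00108). Nap1l4, a histone chaperone, fell in the Prdm16 knockout (-0.18, adjusted p = 0.00387). Slc22a18, an organic cation transporter, had 43.4 and 26.4 in the Prdm16 knockout and 17 and 16 in its control without passing (adjusted p = 0.0722), and neither it nor Tssc4 passed in the PR domain knockout. In all, 4 of the 8 members of the cluster rose and 2 fell in the Prdm16 knockout, and 1 rose and 1 fell in the PR domain knockout, where 39.1% and 19.2% of all loci were called. Leaving out any 1 of the 4 libraries compared ended the Phlda2 call (adjusted p 0.0615 to 0.0671) and the Osbpl5 call (0.0558 to 0.198) of the Prdm16 knockout, and leaving out its control replicate 2 ended that of Nap1l4 (0.0558). The Osbpl5 and Nap1l4 calls of the Prdm16 knockout were also lost under DESeq2. The Phlda2 call of the PR domain knockout was lost without knockout replicate 1 or control replicate 2 (0.15 to 0.152) and under edgeR and DESeq2, and its Osbpl5 call without knockout replicate 2 (0.094). On log2(FPKM + 1), of all the calls in this cluster only that of Cd81 remained. Kcnq1ot1 had 0.0973 to 0.234 FPKM, below the added 1. Exons of Kcnq1ot1, Cdkn1c and Tssc4 overlap those of Kcnq1, Gm44732 and Trpm5 on the other strand, so their fragments cannot be told apart without the strand setting.

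In the Peg10-Sgce cluster on chromosome 6, 3 of the 6 genes were called in opposite directions in the 2 knockouts. Of all loci, 1.28% were called in this way. Peg10 (paternal; chromosome 6, 4747306 to 4760517), a gene derived from a retrotransposon and needed for the placenta, had 30221 and 30363 normalised fragments in the Prdm16 knockout against 22569 and 22099 in its control. It had 21942 and 20966 in the PR domain knockout against 25705 and 25574 in its control. It rose in the Prdm16 knockout (log2 fold change 0.44 ± 0.027 (SE), adjusted p = 8.63e-14) and fell in the PR domain knockout (log2 fold change -0.26 ± 0.027 (SE), adjusted p = 1.81e-08). Sgce (paternal), encoding epsilon-sarcoglycan and read from the promoter region shared with Peg10, had 1134 and 1168 in the Prdm16 knockout and 769.7 and 816 in its control. It had 937 and 1006 in the PR domain knockout and 969.5 and 1032 in its control. Sgce rose in the Prdm16 knockout (0.54, adjusted p = 1.4e-08), and its groups overlapped in the PR domain pair (adjusted p = 0.694).

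Asb4 (maternal; chromosome 6, 5383386 to 5433022), an ankyrin repeat protein of a ubiquitin ligase complex, went the other way. It had 1484 and 1515 in the Prdm16 knockout against 1813 and 1817 in its control, and fell (log2 fold change -0.28 ± 0.049 (SE), adjusted p = 3.74e-05). It had 1749 and 1821 in the PR domain knockout against 942 and 943 in its control, and rose (log2 fold change 0.92 ± 0.049 (SE), adjusted p = 3.81e-15). The difference between the knockouts was 1.20 ± 0.069 (SE; adjusted p = 4.1e-14). Of the 4 groups, the PR domain control had the lowest Asb4 level.

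Ppp1r9a, encoding the actin-binding protein neurabin, had 801 and 799.9 in the Prdm16 knockout against 943 and 916 in its control, and 1103 and 983 in the PR domain knockout against 880.3 and 893 in its control. It fell in the Prdm16 knockout (-0.21, adjusted p = 0.00528) and rose in the PR domain knockout (0.23, adjusted p = 0.00558). Calcr, the calcitonin receptor, was low, at 4.96 and 7.7 in the Prdm16 knockout against 19.1 and 23.5 in its control, and 8.97 and 9.93 in the PR domain knockout against 17.2 and 14.4 in its control. It fell in the Prdm16 knockout (log2 fold change -1.62 ± 0.41 (SE), adjusted p = 0.00188), and its value in the PR domain knockout did not pass (adjusted p = 0.272). Tfpi2, a protease inhibitor, had 0 to 16.1 normalised fragments per library and passed in neither knockout. The Ppp1r9a calls were lost without Prdm16 control replicate 1 (adjusted p = 0.0528) and without PR domain knockout replicate 1 or control replicate 1 (0.0571 to 0.153), and under DESeq2 those of Ppp1r9a and Calcr in the Prdm16 knockout. Both Ppp1r9a calls and the Peg10 call of the PR domain knockout were lost on log2(FPKM + 1).

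In the Peg3 cluster, also on chromosome 7, all 3 members rose in both knockouts. Peg3 (paternal; chromosome 7, 6703892 to 6730431), a zinc finger protein, had 26252 and 27189 normalised fragments in the Prdm16 knockout against 21340.3 and 21578 in its control, and 28472 and 26045 in the PR domain knockout against 24831 and 24876 in its control. Its log2 fold changes were 0.32 ± 0.031 and 0.13 ± 0.031 (SE; adjusted p = 1.86e-09 and 0.00242). Usp29 (paternal), a deubiquitinase gene read from the same promoter region, had 813 and 739 in the Prdm16 knockout against 505 and 500.4 in its control, and 778 and 792 in the PR domain knockout against 686 and 695 in its control. It rose by more in the Prdm16 knockout (log2 fold changes 0.62 and 0.19, difference -0.44, adjusted p = 0.000989). Zim1 (maternal), another zinc finger gene, rose by 0.53 and 0.32 on the log2 scale (adjusted p = 1.07e-09 and 1.4e-05). Genes of both parental classes rose together here. The Peg3 call of the PR domain knockout was lost without its knockout replicate 1 (adjusted p = 0.0755), and that of Usp29 without any 1 of the 4 libraries (0.101 to 0.193) and under DESeq2. None of the 6 calls passed on log2(FPKM + 1).

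The Snrpn cluster, also on chromosome 7, is known from Prader-Willi and Angelman syndromes in humans. In it, 3 of the 5 members fell in the Prdm16 knockout, all of them paternally expressed, where 21.1% of all loci were called lower. Snrpn, a splicing protein gene whose row also includes Snurf and Snhg14, had 862 and 951 normalised fragments in the Prdm16 knockout against 1442 and 1352 in its control. The PR domain knockout had 638 and 604 against 668 and 663 in its control. It fell in the Prdm16 knockout (log2 fold change -0.62 ± 0.063 (SE), adjusted p = 2.15e-09) and did not pass in the PR domain knockout (adjusted p = 0.301). Magel2, a ubiquitin ligase regulator, fell in the Prdm16 knockout (-0.59, adjusted p = 0.0168), and Peg12 fell in both (-0.57 and -0.51, adjusted p = 0.00186 and 0.00971).

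Ndn, encoding the growth suppressor necdin, stood at 213 and 189 in the Prdm16 knockout and 209.9 and 228 in its control, and at 670.1 and 753 in the PR domain knockout and 711 and 723 in its control. The groups overlapped in each pair (adjusted p = 0.279 and 0.942), while the PR domain control was 1.71 higher than the Prdm16 control on the log2 scale. Ube3a, a ubiquitin ligase expressed from the maternal copy in neurons, had 1466 and 1568 in the Prdm16 knockout against 1334 and 1365 in its control, and 1343 and 1381 in the PR domain knockout against 1415 and 1426 in its control. It rose a little in the Prdm16 knockout (0.17, adjusted p = 0.00883). That call was lost without Prdm16 knockout replicate 2 or control replicate 1 (adjusted p 0.0693 to 0.144), that of Magel2 without knockout replicate 2 or either control library (0.0679 to 0.0928), and that of Peg12 in the PR domain knockout without knockout replicate 1 or control replicate 1 (0.126 to 0.15). Under DESeq2 the calls of Magel2 and Peg12 in the Prdm16 knockout and of Peg12 in the PR domain knockout were lost. The FPKM of Snrpn was 185 and 187 in the Prdm16 knockout and 184 and 192 in its control, a log2 fold change of -0.018 on log2(FPKM + 1). On that scale none of the calls in this cluster passed, and Ube3a took -0.06 in the Prdm16 knockout.

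Igf2r and Airn on chromosome 17 passed in neither knockout. Igf2r (maternal), the receptor that clears IGF2, had 8320.1 and 8627 normalised fragments in the Prdm16 knockout and 8499.8 and 8368 in its control, and 7596 and 7085 in the PR domain knockout and 7086 and 7253 in its control. Its groups overlapped in both pairs (adjusted p = 0.902 and 0.591). Airn (paternal), the antisense RNA that silences Igf2r on the paternal copy, had 323 and 394 in the Prdm16 knockout and 311 and 385 in its control, and 505 and 428 in the PR domain knockout and 534 and 476 in its control. Its groups overlapped as well (adjusted p = 0.767 and 0.486).

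Outside these clusters, Plagl1 had the largest called rise. Plagl1 (paternal, on chromosome 10 from 13060504 to 13131694) is a zinc finger factor known in mice to control a network of imprinted genes. Its part in the values of other members was not tested. Plagl1 stood at 23326 and 23391 normalised fragments in the Prdm16 knockout against 10642 and 11034 in its control, and rose (log2 fold change 1.11 ± 0.03 (SE), adjusted p = 7.94e-23). The PR domain knockout had 20037 and 19058 against 17694 and 17420.5 in its control, and rose by less (log2 fold change 0.15 ± 0.03 (SE), adjusted p = 0.000246). The difference was -0.95 ± 0.042 (SE; adjusted p = 4.65e-17). The call of the PR domain knockout was lost on log2(FPKM + 1).

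Mest (paternal), a hydrolase gene of mesoderm and adipose tissue, had 9069 and 9126 normalised fragments in the Prdm16 knockout against 11794 and 12059 in its control, and 8066 and 7964 in the PR domain knockout against 10730.5 and 10421 in its control. It fell in both (log2 fold change -0.39 ± 0.031 (SE), adjusted p = 2.02e-11 in the Prdm16 knockout; log2 fold change -0.40 ± 0.031 (SE), adjusted p = 2.89e-11 in the PR domain knockout). The difference between the knockouts was -0.01 ± 0.044 (SE; adjusted p = 0.918). Exons of Mest overlap those of Copg2 on the other strand, as those of Gnas, Zrsr1, Ube3a and Usp29 do with Nespas, Commd1, Snhg14 and Zim3.

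Gnas, which encodes the stimulatory G protein alpha subunit and several imprinted isoforms, had 21736 and 21521 in the Prdm16 knockout against 14741 and 15276 in its control, and 18921 and 19789 in the PR domain knockout against 17269.6 and 17309 in its control. It rose in both (0.53 and 0.16, adjusted p = 5.09e-15 and 9.82e-05), and by more in the Prdm16 knockout (difference -0.36, adjusted p = 1.19e-07). A second row with the name Gnas held 14.9 to 47.7 normalised fragments per library and was not counted as a further gene. This second row was called lower in the Prdm16 knockout (-0.75, adjusted p = 0.0414), a call lost under edgeR, DESeq2 and log2(FPKM + 1). In the PR domain knockout it did not pass (adjusted p = 0.463). Nnat (paternal), a small membrane protein gene of neural and endocrine tissue, had 3357 and 3279 in the Prdm16 knockout against 4116 and 4151 in its control, and 4573 and 4878 in the PR domain knockout against 5123 and 5013 in its control. It fell in the Prdm16 knockout (-0.32, adjusted p = 9.68e-08) and did not pass in the PR domain knockout (adjusted p = 0.0649). Blcap, the gene that holds Nnat in an intron, passed in neither (adjusted p = 0.135 and 0.0834).

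Slc38a4 (paternal), an amino acid transporter of the placenta and liver, had 6753 and 7025 in the Prdm16 knockout against 5233 and 5149 in its control, and rose (0.41, adjusted p = 7.94e-11). It had 6221 and 6077 in the PR domain knockout against 6354 and 6242 in its control (adjusted p = 0.565). Zrsr1 (paternal), a retrogene of the splicing factor family that lies within Commd1, had 234 and 233 in the Prdm16 knockout against 138 and 114 in its control, and rose (log2 fold change 0.90 ± 0.13 (SE), adjusted p = 1e-06). Its groups overlapped in the PR domain pair, at 181 and 158 in the knockout and 163 and 148 in the control (adjusted p = 0.568). Impact (paternal), a regulator of translation under stress, had 1036 and 1083 in the Prdm16 knockout against 1239 and 1255 in its control, and fell (-0.24, adjusted p = 0.000718). It had 1155 and 1168 in the PR domain knockout and 1158 and 1107 in its control (adjusted p = 0.717).

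Dcn, a proteoglycan of connective tissue that is maternal in the placenta, had 2986 and 2812 in the PR domain knockout against 2344 and 2463 in its control, and rose (0.27, adjusted p = 0.00019). In the Prdm16 pair its groups overlapped, at 1285 and 1365 in the knockout and 1234 and 1344 in the control (adjusted p = 0.564). Mcts2, a retrogene whose row is shared with its host H13, fell in the Prdm16 knockout (-0.16, adjusted p = 0.0425), a call lost without either knockout library or control replicate 1 (adjusted p 0.104 to 0.255) and under edgeR and DESeq2. On log2(FPKM + 1) the calls of Mcts2, Impact and Dcn and that of Gnas in the PR domain knockout were lost.

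Read by parental origin, both classes held rises and falls, and the counts stand beside 18.0% of all loci higher and 21.1% lower in the Prdm16 comparison, with 8.48% higher and 10.7% lower in that of the PR domain. Of 10 maternally expressed members, 4 rose and 4 fell in the Prdm16 knockout, and 5 rose and 2 fell in the PR domain knockout. Of 20 paternally expressed members, 9 rose and 9 fell in the Prdm16 knockout, and 5 rose and 3 fell in the PR domain knockout. The 9 members known as maternal in single tissues only had 3 rises and 3 falls in the Prdm16 knockout and 3 rises and 0 falls in the PR domain knockout. Median log2 fold changes were 0.07 for maternal and -0.04 for paternal members in the Prdm16 knockout, and 0.12 and -0.04 in the PR domain knockout. These medians are a description and were not tested. In each library the median level of the maternal members, relative to each gene's mean over 8 libraries, minus that of the paternal members was 0.054 and 0.066 in the Prdm16 knockout and -0.070 and -0.037 in its control, and 0.20 and 0.24 in the PR domain knockout and -0.13 and -0.12 in its control. Without Prdm16 control replicate 2, the gap between the 2 medians in the Prdm16 knockout was 0.0053, against 0.11 with all libraries, and on log2(FPKM + 1) it was -0.036.

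**Figure D4:**
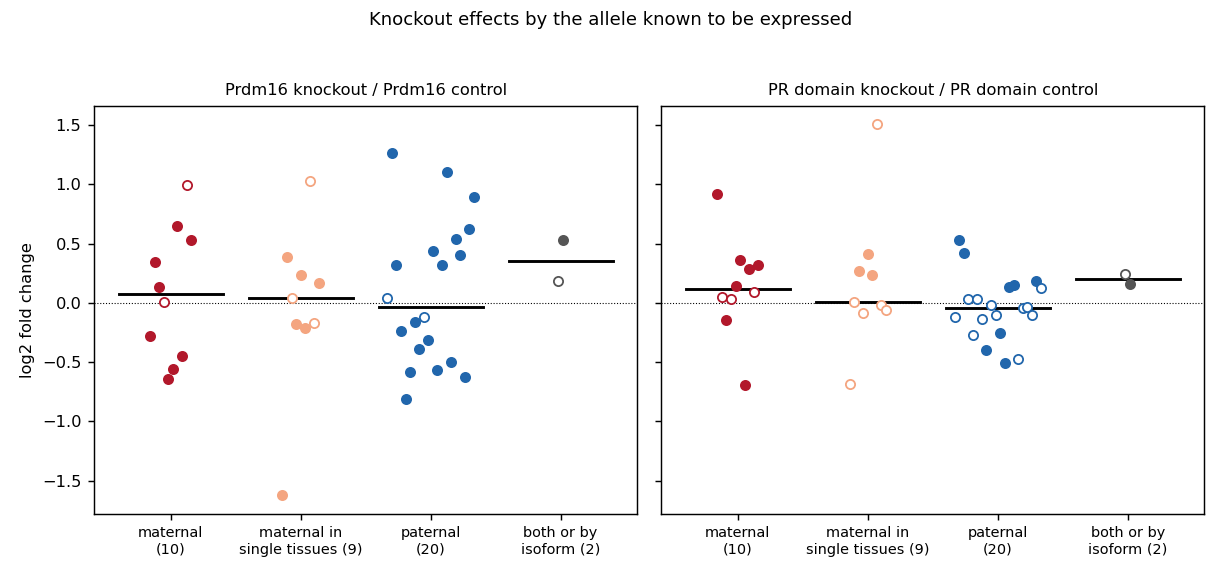
Log2 fold change (y axis) of each imprinted gene by the parental copy known to be expressed, in the Prdm16 knockout (left) and the PR domain knockout (right); filled points passed the test and bars are class medians. In the Prdm16 knockout 9 paternally expressed genes lie above 0 and 9 below among those that passed.

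In all, 18 members were called in both knockouts, 10 in the same direction and 8 in opposite directions. Of all 16623 loci, 11.6% were called in both in the same direction and 1.28% in opposite directions. Those called in the same direction were Igf2, Osbpl5, Dlk1, Peg3, Usp29, Zim1, Peg12, Mest, Plagl1 and Gnas. The 8 others were H19, Phlda2, Meg3, Rian, Mirg, Peg10, Asb4 and Ppp1r9a. A further 15 members were called in the Prdm16 knockout and 1, Dcn, in the PR domain knockout, and 7 in neither. The test of the difference between the 2 effects, PR domain minus Prdm16, called 23 of 41 members, 9 higher and 14 lower, where 16.4% of all loci were called, 7.81% higher and 8.6% lower. A called difference of at least 1 in size was found for 2 members, Phlda2 and Asb4, and 3.3% of all loci. At a minimum difference of 1.5-fold, Meg3, Asb4 and Plagl1 passed, against 1.02% of all loci.

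The 2 wild-type sets, which carry the same genotype and strain labels, also differed. Relative to the Prdm16 control, the PR domain control had 18 members higher, 11 lower and 12 not called, where 33.0% of all loci were called, 16.3% higher and 16.7% lower. A called change of at least 1 in size was found for 5 members, against 6.88% of all loci. At a minimum change of 1.5-fold, 7 members passed, against 4.58% of all loci. Ndn (1.71 on the log2 scale, adjusted p = 2.23e-16), Dcn (0.90), Plagl1 (0.70) and H19 (0.67) were higher in the PR domain control. Phlda2 (-1.50), Snrpn (-1.07) and Asb4 (-0.94) were lower in it. The difference between the wild-type sets was larger in size than the Prdm16 knockout effect in 14 of 41 members, and larger than the PR domain knockout effect in 29 of 41. Over all 16623 loci, this was so for 46.2% and 59.3%. These comparisons share control libraries. Whether these differences come from the line, the culture or the library set was not tested.

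Factors linked to setting or keeping imprints were read from a separate list, of which 22 of 25 were tested. The list also holds the Tet genes, whose products act in removing DNA methylation. Its counts are therefore not of setting and keeping factors alone. In the Prdm16 knockout 3 rose and 12 fell (median log2 fold change -0.22), where 18.0% of all loci were higher and 21.1% lower, and in the PR domain knockout 0 rose and 6 fell (median -0.05), where 8.48% of all loci were higher and 10.7% lower. Dnmt3b, a de novo DNA methyltransferase, averaged 604 ± 10.6 in the Prdm16 knockout and 1256 ± 30.8 in its control (SD, n = 2 each), and fell (log2 fold change -1.05 ± 0.083 (SE), adjusted p = 1.37e-11). It fell in the PR domain knockout too, at 120 ± 1.61 against 166 ± 6.63 in its control (-0.46, adjusted p = 0.00011). Dnmt3b differed more between the wild-type sets (PR domain control against Prdm16 control: log2 fold change -2.91, adjusted p = 8.57e-23). Between these controls 3 of the 22 factors were higher and 11 lower, where 16.3% and 16.7% of all loci were. Hells, a chromatin remodeller needed for DNA methylation, fell in both knockouts (-0.43 and -0.25). So did the maintenance methyltransferase Dnmt1 (-0.28 and -0.23) and the insulator protein Ctcf (-0.28 and -0.26). Trim28, the corepressor of ZFP57, also fell in both (-0.25 and -0.13), and Uhrf1, which brings Dnmt1 to replicated DNA, fell in the Prdm16 knockout (-0.44). Dnmt3a, Tet2 and Suz12 rose in the Prdm16 knockout (0.28, 0.33 and 0.24). Zfp57 did not pass in either (adjusted p = 0.0891 and 0.61). Undifferentiated stem cell markers (3 of 6 tested), in which Dnmt3b is also high, summed to 321 and 294 in the Prdm16 knockout against 592 and 557 in its control, and to 51.1 and 72.8 in the PR domain knockout against 152 and 152 in its control. Of the 3, Pou5f1 and Tdgf1 fell in the Prdm16 knockout (-0.93 and -1.01) and Nanog did not pass (adjusted p = 0.124). In the PR domain knockout Tdgf1 fell (-2.11), Pou5f1 rose (0.84, adjusted p = 0.00493) and Nanog did not pass (adjusted p = 0.858). Their part in the Dnmt3b values was not tested.

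A second list held other imprinted genes and neighbours in the same clusters, of which 32 of 44 were tested. In the Prdm16 knockout 10 rose and 7 fell (median 0.11), and in the PR domain knockout 6 rose and 2 fell (median 0.05). Of all loci, 39.1% and 19.2% were called in these comparisons. H13, among the 7 that fell, is the same row of the table as the member Mcts2. Dio3, the thyroid hormone deiodinase at the far end of the Dlk1-Meg3 cluster, averaged 329.7 ± 34.7 in the Prdm16 knockout and 167 ± 19.7 in its control, and 117 ± 14 in the PR domain knockout and 57.8 ± 7.23 in its control (SD, n = 2 each). It rose in both (log2 fold change 0.98 ± 0.14 (SE), adjusted p = 1.6e-06 and log2 fold change 1.00 ± 0.14 (SE), adjusted p = 2.72e-06). Lsp1 (0.63 and 0.49) and Phactr2 (0.19 and 0.41) also rose in both, and Copg2, which overlaps Mest, fell in both (-0.27 and -0.30). Klf14, a transcription factor gene near Mest, rose in both (1.30 and 0.79). Trpm5, a cation channel gene whose exons overlap Tssc4 on the other strand, rose in the Prdm16 knockout (1.37, adjusted p = 1.56e-06). In the same knockout Casd1 (-0.33), Wars (-0.32) and the non-coding RNA Peg13 (-0.76) fell. Ctnna3, encoding an alpha catenin, rose in the Prdm16 knockout (0.84, adjusted p = 0.0336) and fell in the PR domain knockout (-1.06, adjusted p = 0.0157). Tspan32, a tetraspanin of blood cells in the Kcnq1ot1 cluster, rose in the PR domain knockout, at 161 ± 4.74 against 50.2 ± 6.41 in its control (log2 fold change 1.67 ± 0.17 (SE), adjusted p = 1.01e-08). The 6 blood markers summed to 15873 and 15399 in the PR domain knockout against 8202 and 7714 in its control; their part in the Tspan32 value was not tested.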

How the data were processed

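RNA-seq libraries from 8 embryoid body samples at day 9 were used, 2 in each of 4 groups. Tools listed in the submitters' processing notes are Cufflinks 2.2.1, TopHat2 2.1.1 and SAMtools 1.5, with the build mm10. Annotation release and strand setting: not given in the sources used here. Per the file headers and values, the deposited fragment table holds a signal, the fragments of a locus divided by 1 size factor per library by the authors. Whole fragments came back from 99.996 to 100% of its values within 0.1. The authors also deposited FPKM, fragments scaled by transcript length and library size. The 787 loci without a name, 1.88 to 2.53% of fragments, were left out.

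Loci that reached 10 in 2 or more libraries were fitted on log2(value + 1) with limma 3.58.1 in R 4.3.3, over 4 group means, with Benjamini-Hochberg adjustment. This log2 scale understates changes of low genes. Python 3.11.15 was used for tables and figures. Alternatives were edgeR 4.0.16 and DESeq2 1.42.0 on the recovered fragments, other scalings, pseudocounts of 0.5 and 5, log2(FPKM + 1), other filters, the replicate block and leaving out each library. The edgeR quasi-likelihood test called 6470 loci in the Prdm16 comparison, with 3418 in that of the PR domain. Scripts were tested on simulated data. Members and lists were chosen with earlier results of these data known. Values in every library are given for members called in the difference of the knockouts, or called in a knockout with a log2 fold change of at least 1 in size, and for the best known members of each cluster. From the other 2 gene lists, up to 4 called genes per direction and comparison are named, those with the smallest adjusted p. Zfp57, H13 and the markers named were chosen after their values were seen.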

Additional observations from a re-analysis of the deposited data

Results flagged for a closer look

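The effect of the PR domain knockout, minus that of the Prdm16 knockout, passed limma's test of the difference itself for 23 imprinted genes. It was positive on the log2 scale for Asb4 (1.20), Mirg (0.92), Meg3 (0.79), Rian (0.74), Snrpn (0.52), Ppp1r9a (0.45), Impact (0.27), Dcn (0.23) and Nnat (0.22). It was negative for Phlda2 (-1.34), Plagl1 (-0.95), Zrsr1 (-0.77), Dlk1 (-0.73), Peg10 (-0.70), Sgce (-0.58), Slc38a4 (-0.44), Usp29 (-0.44), Cd81 (-0.38), Gnas (-0.36), Cdkn1c (-0.29), H19 (-0.28), Ube3a (-0.23) and Peg3 (-0.18). The call was lost for Ube3a without any 1 of 5 of the 8 libraries (adjusted p 0.0725 to 0.141), for Dcn without any 1 of 4 (0.12 to 0.164) and for Impact without any 1 of 2 (0.0559 to 0.0741). Each knockout was set against a wild-type set of its own, and these sets differed, so the knockouts and the sets they belong to cannot be told apart in this difference.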

How the results depend on the processing

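The comparisons below come in the order Prdm16 knockout, PR domain knockout, difference of the knockouts, and PR domain control against Prdm16 control. On log2(FPKM + 1), 14, 5, 6 and 12 members and 2244, 582, 199 and 1717 loci were called. DESeq2's Wald test called 3983, 1797, 1179 and 3388 loci. Against a minimum change of 1.5-fold, chosen after seeing the data, 2, 1, 3 and 7 members and 683, 221, 169 and 761 loci passed. With no low-value filter, 1642 loci were called in the difference. Leaving out 1 library gave 26 to 29, 14 to 17, 21 to 25 and 26 to 28 members and 5028 to 5422, 2180 to 2449, 1950 to 2390 and 4047 to 4231 loci. With each library left out in turn, 25 of 33, 12 of 19, 20 of 23 and 24 of 29 called members held their call every time. The share of higher calls over all loci was 54.4% with DESeq2's median-ratio scaling, against 44.2%, for the PR domain knockout and 63.0% with total-fragment scaling, against 47.6%, for the difference.

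The gap between the maternal and paternal medians in the Prdm16 knockout was -0.036 on log2(FPKM + 1), 0.079 with the maternal class widened to genes maternal in single tissues, and 0.0053 to 0.19 without 1 library. In the PR domain knockout it was 0.19 with edgeR, 0.20 with DESeq2, 0.070 on log2(FPKM + 1), 0.13 with the wider class and 0.14 to 0.28 without 1 library. On log2(FPKM + 1) the sign turned for Ube3a in the Prdm16 knockout (-0.065), Rian in the PR domain knockout (-0.062) and Snrpn in the difference (-0.38). The cause was not tested.

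With the replicate number as a block, 32, 18, 23 and 28 members and 6438, 3149, 2686 and 5442 loci were called, and the calls of Rtl1 in the Prdm16 knockout, Usp29 in the PR domain knockout and Impact between the controls were lost. Deviations of same-numbered knockout and control libraries correlated at 0.008 in the Prdm16 pair and 0.034 in the PR domain pair over 10256 loci, so the numbers were not taken to pair the samples.

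With 2 libraries a group, a gene's own replicates give few values for the spread, which here leans on the trend over all loci. Members under about 20 fragments, such as Calcr and Tfpi2, are limited by depth.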
